A study of Mus musculus with 24 samples.

Results

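Cxcl1, Ccl2, Vcam1, Icam1, Mmp13, Nfkbia, Nfkbiz, Tnfaip3 and Zc3h12a are 9 inflammatory genes that the transcription factor NF-kB is known to drive. They were found by symbol in the deposited count table, where they make up 9 of 39253 genes listed, and all 9 were among the 15405 genes with enough counts to test. They were chosen from these same libraries because they stood higher in the cultures labelled B_3 than in those labelled A_1, A_2 and B_2. That difference is therefore given as a description, with no test. For 7 of the 9 genes no library exceeded B_3 in any of the 6 groups, while for Nfkbia this held in 4 groups and for Ccl2 in 2.

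Measured were 24 mRNA sequencing libraries of primary granulosa cells, the hormone-making cells of the ovarian follicle, with 4 libraries in each of 6 groups. The cells came from C57BL/6 mice aged 23 days, taken 48 h after pregnant mare serum gonadotropin (PMSG), and each preparation pooled 2 mice. Every culture was first transfected for 3 h, and then kept for 12 h or 4 h in medium that held human chorionic gonadotropin (hCG), which binds the luteinizing hormone receptor, or in plain medium. The groups were siNTS (an siRNA against Nts, the neurotensin gene) with hCG, siNC (a negative control siRNA) with hCG, and siNC without hCG, each at 12 h and at 4 h. All 6 groups therefore share PMSG priming and transfection, and siNTS cells without hCG were not analysed here. Each label occurs once in every group. The sample titles give B_3 a date of its own, A_1 another, and A_2 and B_2 a shared one, without saying which step the date refers to. B_3 thus stands for 1 library in every group, and whether those 6 libraries came from 1 preparation is not stated. Any feature that the B_3 cultures share cannot be told apart from their date. The titles also name the cells AmGCs for A_1 and A_2 and BmGCs for B_2 and B_3, without explaining these names. They do not say whether A_2 and B_2 were separate pools, so p-values measure the spread between these libraries, which may be partly technical.

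NF-kB is held in the cytoplasm by inhibitor proteins until a signal such as a cytokine or a microbial product leads to their destruction, after which its subunits enter the nucleus and switch on their targets. Some of those targets, such as chemokines and adhesion molecules, recruit white blood cells, and others feed back to end the response. In the ovary, ovulation is known to share many features with inflammation, and granulosa cells are known to make cytokines and chemokines themselves.

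The kB consensus, a motif that NF-kB dimers bind, was searched by name on both strands in the 250 bases upstream of the start of each gene, in RefSeq promoter windows of build GRCm38.p6. Windows were found for 6 of the 9 genes (Cxcl1, Icam1, Mmp13, Nfkbia, Tnfaip3 and Zc3h12a), with 7 windows in all, and 3 of these 7 windows held a match, against 7.25% of all 32851 windows. Those 3 sequences are printed 5′ to 3′ on the strand of the gene, because they are the windows with a match, and capitals mark the matched bases.
Cxcl1, chr5:90890995-90891244, plus strand: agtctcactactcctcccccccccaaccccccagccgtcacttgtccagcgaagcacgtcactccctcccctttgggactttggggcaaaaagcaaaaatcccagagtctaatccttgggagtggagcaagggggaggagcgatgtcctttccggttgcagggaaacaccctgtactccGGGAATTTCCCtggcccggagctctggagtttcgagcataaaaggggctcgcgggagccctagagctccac
Tnfaip3, chr10:19015411-19015660, minus strand: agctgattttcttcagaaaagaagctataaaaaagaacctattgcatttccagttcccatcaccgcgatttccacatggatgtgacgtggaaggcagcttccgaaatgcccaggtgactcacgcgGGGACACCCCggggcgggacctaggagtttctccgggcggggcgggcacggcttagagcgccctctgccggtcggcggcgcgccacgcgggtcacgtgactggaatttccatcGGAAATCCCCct
Nfkbia, chr12:55492648-55492897, minus strand: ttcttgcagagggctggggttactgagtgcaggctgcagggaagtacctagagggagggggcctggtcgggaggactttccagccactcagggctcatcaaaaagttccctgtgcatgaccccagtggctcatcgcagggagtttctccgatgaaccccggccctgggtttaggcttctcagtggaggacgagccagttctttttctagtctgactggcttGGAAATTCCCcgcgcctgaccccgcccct
The Cxcl1 match lies 71 to 61 bases before the start and is read on both strands with an offset. Tnfaip3 has a match 125 to 116 bases before the start, read on both strands, and another 12 to 3 bases before it. Nfkbia has a match 29 to 20 bases before the start. A second Tnfaip3 window and those of Icam1, Mmp13 and Zc3h12a held no match within these bases. A match is a string of letters and was not measured as a binding site here.

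Library totals were 35.4 to 40.2 M estimated counts in B_3 and 26.2 to 45.4 M in the other labels. Nts, the siRNA target, was lower in siNTS than in siNC cells with hCG under every label at both times. Its level was higher in B_3, however, so that B_3 siNTS cells exceeded the siNC cells of the other labels. At 12 h B_3 held 2.73 CPM in siNTS and 9.67 CPM in siNC, where siNC of A_1, A_2 and B_2 held 2.69, 1.56 and 1.49 CPM. At 4 h B_3 held 42.85 CPM in siNTS and 180 CPM in siNC, where siNC of A_1, A_2 and B_2 held 16.1, 28.7 and 22.9 CPM. CPM is the count per 1 M counts of the library total, after that total was scaled by edgeR's TMM normalisation factor. The A_1 library of siNC without hCG at 12 h deviated from its group in the opposite direction to both A_1 libraries it was compared with, siNC with hCG at 12 h and siNC without hCG at 4 h (correlations of deviations -0.692 and -0.647 over 10798 genes), and the count of the 9 genes called in each comparison was the same without it. Granulosa markers were present in every library, with Foxl2 at 64.9 to 234 CPM. Averaged over the 6 groups, the log2 CPM difference of B_3 from the other labels had a median of -0.025 over 10 such markers. It ran from -0.396 for Gja1, with B_3 highest in 0 groups, to 0.851 for Inhba, with B_3 highest in 5. The summed CPM of 18 immune cell markers was 12.3 to 31.0 in B_3 and 7.01 to 39.3 in the other labels, and B_3 was highest in 1 of 6 groups. Among the 13 immune markers tested, B_3 was highest in the most groups for Mrc1 (4 groups, mean 0.244 CPM) and in 0 for Tyrobp. The markers Cd3e, S100a8 and S100a9 were at or near 0, with highest values of 0.0523, 0.125 and 0.0722 CPM in any library. For 10 endothelial markers the sum was 9.15 to 17.4 CPM in B_3 and 7.51 to 13.7 CPM in the other labels, and B_3 was highest in 6 of 6 groups. Of the 7 endothelial markers tested 1 did the same, the junction protein Cdh5. B_3 was highest in 4 groups for Flt1 and Tek, in 2 for Cldn5 and Esam, in 1 for Egfl7 and in 0 for Pecam1. For theca and stromal fibroblast markers the summed CPM was highest in B_3 in 4 groups. For smooth muscle and pericyte, surface epithelium and oocyte markers it was so in 1, 0 and 1. Among the theca and stromal markers, Pdgfra had B_3 highest in 5 groups and Cyp17a1 in 0. Of 7 smooth muscle and pericyte markers tested, Notch3 alone had B_3 highest in 6 groups. Pdgfrb had it highest in 5, Rgs5 in 3, Des in 2, Myh11 in 1, and Acta2 and Cspg4 in 0. Fewer cells of a type and less RNA per cell cannot be told apart in bulk samples, and the part of these markers in the differences below was not tested.

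The 9 genes were higher in B_3 by a median of 2.04 on the log2 CPM scale, averaged over the 6 groups, while the median over all tested genes was 0.00. For 510 of 15405 genes, or 3.31%, B_3 was the highest library in all 6 groups, and 7 of the 9 genes were among them by the way they were chosen. Of the 54 pairings of a gene with a group, B_3 was highest in 48. By mean difference Cxcl1 ranked 1, Mmp13 5, Icam1 6, Nfkbiz 9, Vcam1 15, Tnfaip3 22 and Zc3h12a 29 among the tested genes, with Nfkbia at 520 and Ccl2 at 1788. In 8 of the 9 genes every 12 h difference was larger than every 4 h difference, the exception being Mmp13. The median difference over the 9 genes was 3.59 in siNTS cells with hCG, 2.32 in siNC cells with hCG and 3.73 in siNC cells without hCG at 12 h. At 4 h these medians were 1.01, 1.31 and 1.27 for the same treatments.

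**Figure D1:**
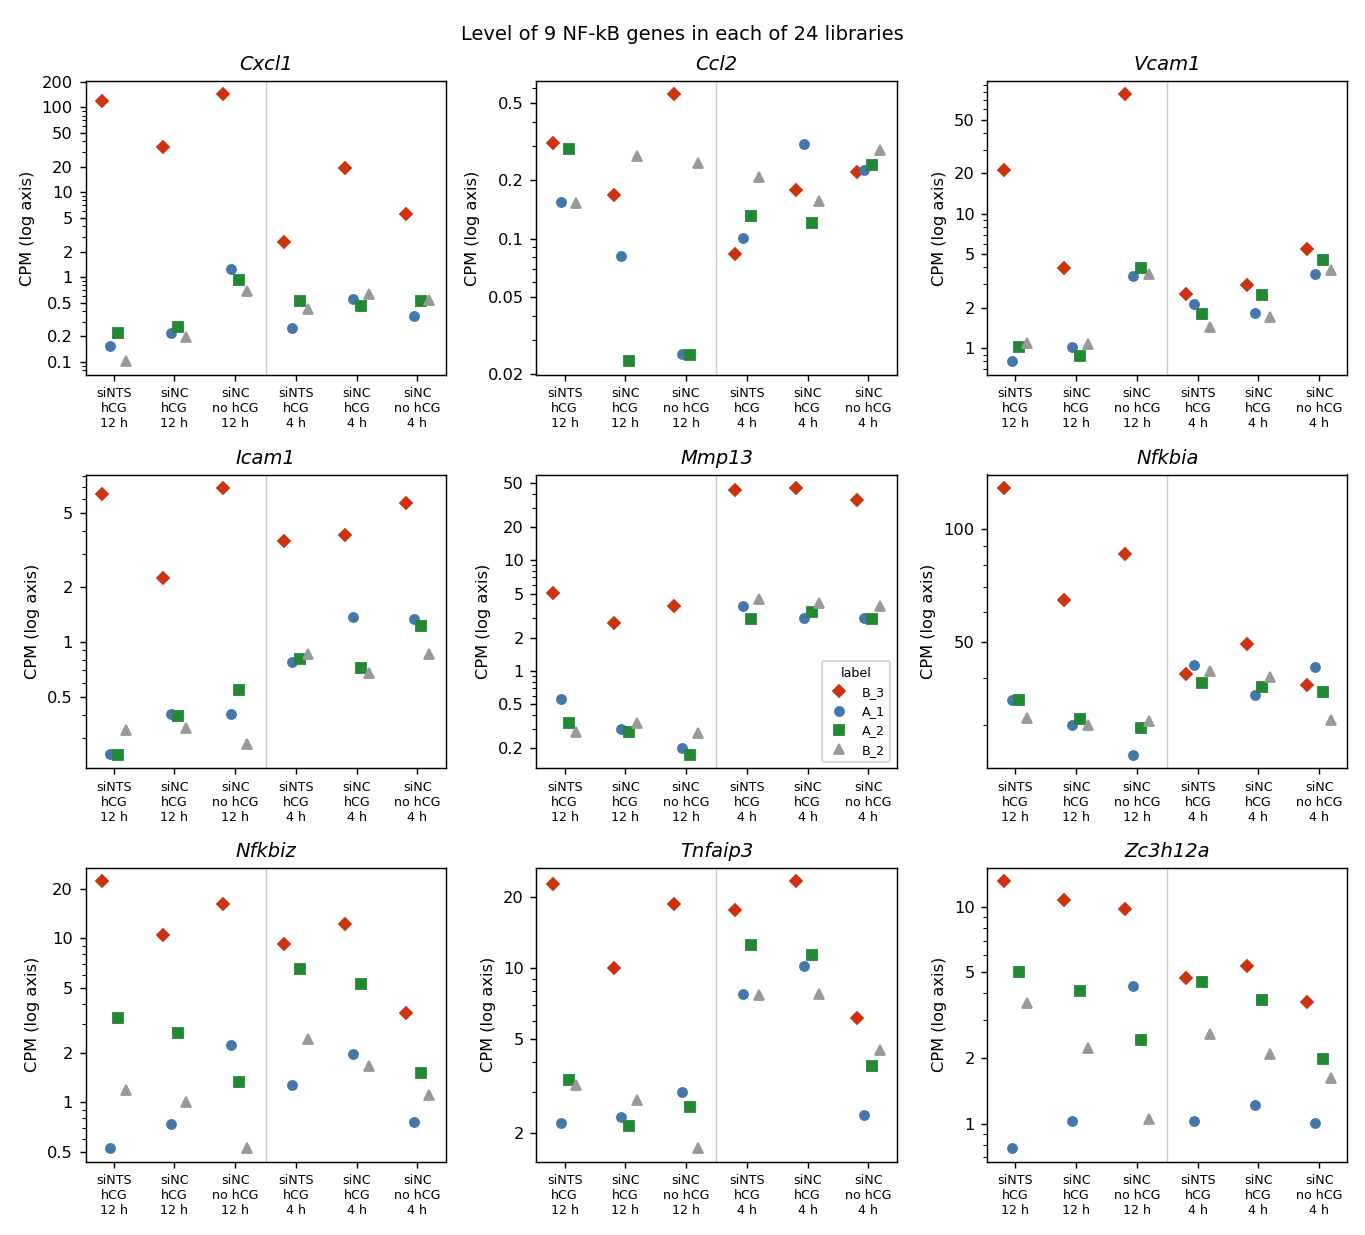
CPM of each of the 9 genes on a log axis, in each of 24 libraries by group, 12 h left of 4 h, with 1 symbol per label. The B_3 diamonds lie above the other labels in all 6 groups for 7 genes, while Nfkbia is set apart at 12 h and Ccl2 is at most 0.554 CPM in any library.

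**Figure D2:**
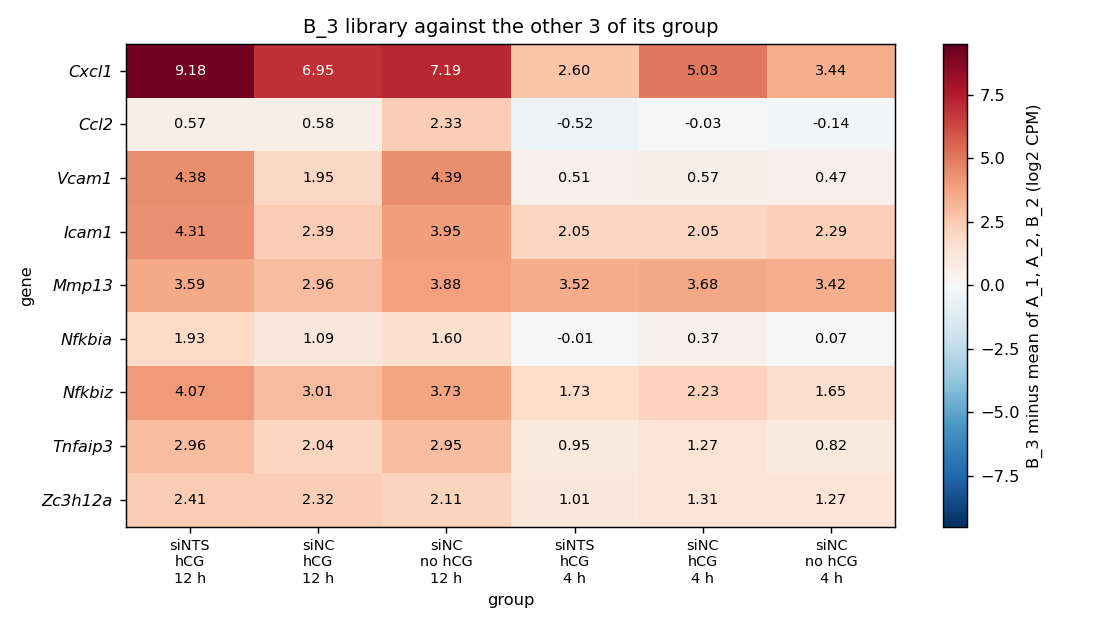
Difference between the B_3 library and the mean of A_1, A_2 and B_2 in log2 CPM, for each gene (rows) and group (columns), with a prior count of 2. Cxcl1 reaches 9.18 in siNTS cells with hCG at 12 h, Mmp13 stays between 2.96 and 3.88, and the 4 h values of Nfkbia and Ccl2 lie between -0.52 and 0.37.

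Cxcl1 encodes a chemokine that draws neutrophils, and it had the largest B_3 difference of all tested genes. At 12 h, siNTS cells with hCG held 118 CPM in B_3, against 0.154, 0.218 and 0.102 CPM in A_1, A_2 and B_2. The siNC cells with hCG held 33.7 CPM in B_3, against 0.217, 0.256 and 0.195 CPM in the other 3. Without hCG the values were 142 CPM in B_3, against 1.24, 0.923 and 0.678 CPM. The B_3 libraries of 12 h therefore stood 747-fold, 151-fold and 149.7-fold above the mean of the other labels in these groups. At 4 h the siNTS cells with hCG held 2.59 CPM in B_3, against 0.251, 0.524 and 0.416 CPM. In siNC cells at 4 h, B_3 held 19.3 CPM with hCG, where the other labels held 0.556, 0.459 and 0.628 CPM. In siNC cells without hCG at 4 h it held 5.51 CPM, where they held 0.351, 0.521 and 0.539 CPM. No B_3 library overlapped the others of its group, and the 3 other labels differed among themselves by at most 2.15-fold within a group. The order of the groups differed by label: in A_1, A_2 and B_2 the lowest levels were those of 12 h with hCG, whereas in B_3 the lowest levels were those of 4 h.

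Ccl2 encodes a chemokine that draws monocytes, and it is the gene of the 9 for which B_3 stood out least. It was barely detected, with 1.0 to 21.4 estimated counts per library. B_3 was highest without hCG at 12 h, with 0.554 CPM, against 0.0254, 0.0249 and 0.247 CPM in A_1, A_2 and B_2. In siNTS cells with hCG at 12 h, B_3 held 0.310 CPM, against 0.154, 0.291 and 0.153 CPM. In the other 4 groups the B_3 value lay within the range of the other labels or below it.

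Vcam1 encodes an adhesion molecule that binds integrins of white blood cells. Its B_3 excess appeared at 12 h. In siNTS cells with hCG at 12 h there were 21.1 CPM in B_3, against 0.800, 1.02 and 1.10 CPM in A_1, A_2 and B_2. In siNC cells with hCG at 12 h there were 3.97 CPM in B_3, against 1.03, 0.884 and 1.07 CPM. In siNC cells without hCG at 12 h there were 77.1 CPM in B_3, against 3.43, 3.97 and 3.55 CPM. These are 21.7-fold, 3.99-fold and 21.1-fold above the mean of the other labels. At 4 h the B_3 library was still the highest of each group, but with 2.53, 2.96 and 5.49 CPM in siNTS with hCG, siNC with hCG and siNC without hCG, against at most 2.14, 2.49 and 4.51 CPM in the other labels. The 4 h differences from the mean of the others were 0.47 to 0.57 on the log2 scale.

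Icam1 encodes an adhesion molecule that binds leukocyte integrins of another class. At 12 h it stood at 6.34, 2.21 and 6.89 CPM in the B_3 libraries of siNTS with hCG, siNC with hCG and siNC without hCG, against 0.243 to 0.549 CPM in the 9 libraries of the other labels. At 4 h the same treatments gave 3.53, 3.80 and 5.66 CPM in B_3, against 0.680 to 1.36 CPM in the 9 others. The B_3 level was higher at 12 h than at 4 h in 2 treatments and lower in siNC with hCG, while the other labels were all lower at 12 h than at 4 h. Its difference was 2.05 to 2.29 on the log2 scale at 4 h and 2.39 to 4.31 at 12 h.

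Mmp13 encodes collagenase-3, a protease that cuts fibrillar collagen. Its B_3 difference was the steadiest of the 9 genes, between 2.96 and 3.88 on the log2 scale in all groups. At 12 h the siNTS cells with hCG held 5.10 CPM in B_3, against 0.554, 0.340 and 0.280 CPM in A_1, A_2 and B_2. With hCG, siNC cells of 12 h held 2.72 CPM in B_3, against 0.299, 0.279 and 0.341 CPM. Without hCG they held 3.88 CPM in B_3, against 0.203, 0.175 and 0.277 CPM. All labels were lower at 12 h than at 4 h in every treatment. The 4 h siNTS cells with hCG held 43.0 CPM in B_3, against 3.87, 2.95 and 4.44 CPM. The siNC cells of 4 h held 45.2 CPM with hCG in B_3, against 3.03, 3.38 and 4.11 CPM. Without hCG they held 35.5 CPM in B_3, against 3.03, 2.97 and 3.88 CPM.

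Nfkbia encodes IkB-alpha, the inhibitor that holds NF-kB in the cytoplasm and is itself resynthesised as an NF-kB target. At 12 h it stood at 128 CPM in siNTS cells with hCG in B_3, against 34.9, 34.9 and 31.3 CPM in A_1, A_2 and B_2. The siNC cells of 12 h had 64.7 CPM with hCG in B_3, against 30.0, 31.1 and 30.1 CPM. Without hCG they had 85.6 CPM in B_3, against 25.02, 29.4 and 30.7 CPM. The 9 other libraries of 12 h thus spanned 25.02 to 34.9 CPM whatever the treatment, and the B_3 libraries lay 3.80-fold, 2.13-fold and 3.02-fold above their groups' means. The 4 h B_3 values of 41.2, 49.3 and 38.4 CPM included 1, in siNC with hCG, that was the highest of its group, and the other labels spanned 30.9 to 43.4 CPM.

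Nfkbiz encodes IkB-zeta, a nuclear member of the IkB family that is needed for induction of a subset of NF-kB targets. At 12 h there were 22.3 CPM in siNTS cells with hCG in B_3, against 0.523, 3.25 and 1.20 CPM in A_1, A_2 and B_2. The 12 h siNC cells with hCG held 10.49 CPM in B_3, against 0.733, 2.65 and 0.999 CPM. The 12 h siNC cells without hCG held 16.1 CPM in B_3, against 2.23, 1.32 and 0.524 CPM. In the 4 h groups the B_3 libraries were again highest, but closer to A_2. The siNTS cells with hCG held 9.23 CPM in B_3 at 4 h, against 1.28, 6.51 and 2.45 CPM. The siNC cells with hCG held 12.3 CPM in B_3, against 1.98, 5.24 and 1.67 CPM, and those without hCG held 3.52 CPM in B_3, against 0.752, 1.52 and 1.11 CPM. A_2 was the highest of the 3 other labels in 5 of 6 groups, although it shares its date with B_2, and those labels differed by up to 6.21-fold within a group.

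Tnfaip3 encodes A20, a ubiquitin-editing enzyme that shuts down NF-kB signalling. The 12 h siNTS cells with hCG held 22.8 CPM in B_3, against 2.22, 3.35 and 3.21 CPM in A_1, A_2 and B_2. The 12 h siNC cells with hCG held 10.03 CPM in B_3, against 2.34, 2.14 and 2.78 CPM. Without hCG the 12 h values were 18.7 CPM in B_3, against 3.00, 2.59 and 1.73 CPM. In the other labels the 12 h level was low with and without hCG, and in B_3 it stood 7.78-fold, 4.15-fold and 7.65-fold above their mean. After 4 h the siNTS cells with hCG held 17.6 CPM in B_3, against 7.77, 12.6 and 7.67 CPM. The 4 h siNC cells with hCG held 23.4 CPM in B_3, against 10.2, 11.4 and 7.80 CPM. Without hCG at 4 h there were 6.15 CPM in B_3, against 2.38, 3.84 and 4.53 CPM. At 4 h B_3 was at most 2.38-fold above the mean of the others.

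Zc3h12a encodes Regnase-1, an endoribonuclease that degrades mRNAs of inflammatory genes. At 12 h it stood at 13.1, 10.8 and 9.84 CPM in the B_3 libraries of siNTS with hCG, siNC with hCG and siNC without hCG, against 0.770 to 5.02 CPM in the 9 libraries of the other labels. At 4 h the same treatments gave 4.70, 5.37 and 3.64 CPM in B_3, against 1.00 to 4.50 CPM. The margin was narrowest in siNTS cells with hCG at 4 h, where A_2 held 4.50 CPM. As for Nfkbiz, A_2 was the highest of the other 3 labels in 5 of 6 groups, and those labels differed by up to 6.53-fold within a group. The exception for both genes was siNC without hCG at 12 h, where the A_1 library held 4.34 CPM of Zc3h12a and 2.23 CPM of Nfkbiz.

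Within B_3 at 12 h, the siNC library with hCG was the lowest of the 3 libraries for 8 of the 9 genes, the exception being Zc3h12a. Cxcl1, for example, stood at 118 CPM in siNTS with hCG, 33.7 CPM in siNC with hCG and 142 CPM in siNC without hCG. Each of these values is 1 library, so this order has no replicate check. Outside B_3 the 9 genes did not move as a block. Over the 18 other libraries, correlations of deviations from the group means had a median of -0.05 over 36 pairs of genes, from -0.80 to 0.93, and 5 pairs exceeded 0.5. Those 5 joined Nfkbiz with Zc3h12a (0.93), Tnfaip3 (0.69) and Cxcl1 (0.63), and Zc3h12a with Tnfaip3 (0.66) and Cxcl1 (0.54). Over all 24 libraries, B_3 included, the raw log2 levels correlated with a median of 0.61, and 23 of 36 pairs exceeded 0.5. The genes were chosen for standing higher in B_3, so positive correlations over libraries that include it follow in part from that choice. Raw levels also hold the differences between groups, which the deviations do not, so these medians are not like for like. These are descriptions over libraries that share labels and groups.

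Vcam1 fell with hCG at 12 h, while the median log2 fold change was -0.59 over the 9 genes and -0.01 over all tested genes. It was the 1 gene of the 9 that passed the test among the siNC cells, edgeR's quasi-likelihood test with Benjamini-Hochberg adjustment over all genes, where 8.36% of all genes were called lower and 16.5% either way. Vcam1 stood at 3.97, 1.03, 0.884 and 1.07 CPM in B_3, A_1, A_2 and B_2 with hCG, against 77.1, 3.43, 3.97 and 3.55 CPM without hCG. Under each label it was lower with hCG, although the B_3 library with hCG overlapped the other labels without it. The log2 fold change was -3.66 ± 1.06 (SE), adjusted p = 0.019, and without the B_3 libraries it was -1.86, adjusted p = 2.3e-05. The call was lost without A_2 (adjusted p = 0.083) and without B_2 (adjusted p = 0.067) as well as with limma-voom (0.081) and with the libraries of the contrast alone (0.065), and DESeq2 gave no adjusted p. Cxcl1 was also lower with hCG under every label, with differences of -2.08 in B_3, -2.27 in A_1, -1.67 in A_2 and -1.57 in B_2 in log2 CPM. It did not pass over all libraries (-2.08 ± 1.97, adjusted p = 0.52), and it did without B_3 (-2.07, adjusted p = 0.00075). The other 7 genes differed in direction between labels or by little. Nfkbiz, for example, gave -0.62 in B_3, -1.54 in A_1, 0.98 in A_2 and 0.87 in B_2, with -0.44 ± 1.08 and adjusted p = 0.82 overall.

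After 4 h of hCG no gene of the 9 passed edgeR's quasi-likelihood test, which called 19.1% of all genes, and 1 had an unadjusted p under the threshold of 0.05. DESeq2 and limma-voom called none either, DESeq2 giving no adjusted p for 4 of the 9. The median log2 fold change was 0.30 over the 9 genes and -0.07 over all tested genes. Tnfaip3 came nearest. It stood at 23.4, 10.2, 11.4 and 7.80 CPM in B_3, A_1, A_2 and B_2 with hCG, against 6.15, 2.38, 3.84 and 4.53 CPM without hCG. All libraries with hCG lay above all libraries without it. The log2 fold change was 1.64 ± 0.76, adjusted p = 0.14; in the fit with the replicate block, which pairs libraries by label, it was 1.56, adjusted p = 0.0033. Without B_3 it was 1.49, adjusted p = 0.0017. Nfkbiz was likewise higher with hCG under every label, by 1.79 in B_3, 1.33 in A_1, 1.75 in A_2 and 0.57 in B_2 in log2 CPM, and its adjusted p was 0.36 without and 0.034 with the replicate block. In that paired fit 2 of the 9 genes were called higher, and 12.8% of all genes. Zc3h12a differed by 0.55 in B_3, 0.28 in A_1, 0.89 in A_2 and 0.36 in B_2, adjusted p = 0.66. Vcam1 was lower with hCG under every label, by -0.88 in B_3, -0.94 in A_1, -0.85 in A_2 and -1.15 in B_2, with adjusted p = 0.56. It passed when B_3 was left out (adjusted p = 0.0039) and when the fit held only the libraries of the contrast (adjusted p = 0.033).

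No gene of the 9 was called in the test of whether the hCG effect differed between 12 h and 4 h, which called 3.8% of all genes, and 1 of the 9 had an unadjusted p under 0.05. DESeq2 and limma-voom called none, DESeq2 giving no adjusted p for 4 of the 9. Tnfaip3 had the lowest p: hCG went with -0.59 ± 0.75 at 12 h and 1.64 ± 0.76 at 4 h, a difference of -2.23 ± 1.06 with adjusted p = 0.25. With the replicate block that difference was -1.90, adjusted p = 0.023, making it the 1 gene of the 9 called lower, where 5.75% of all genes were. Without B_3, Cxcl1 passed instead (-2.32, adjusted p = 0.019).

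**Figure D3:**
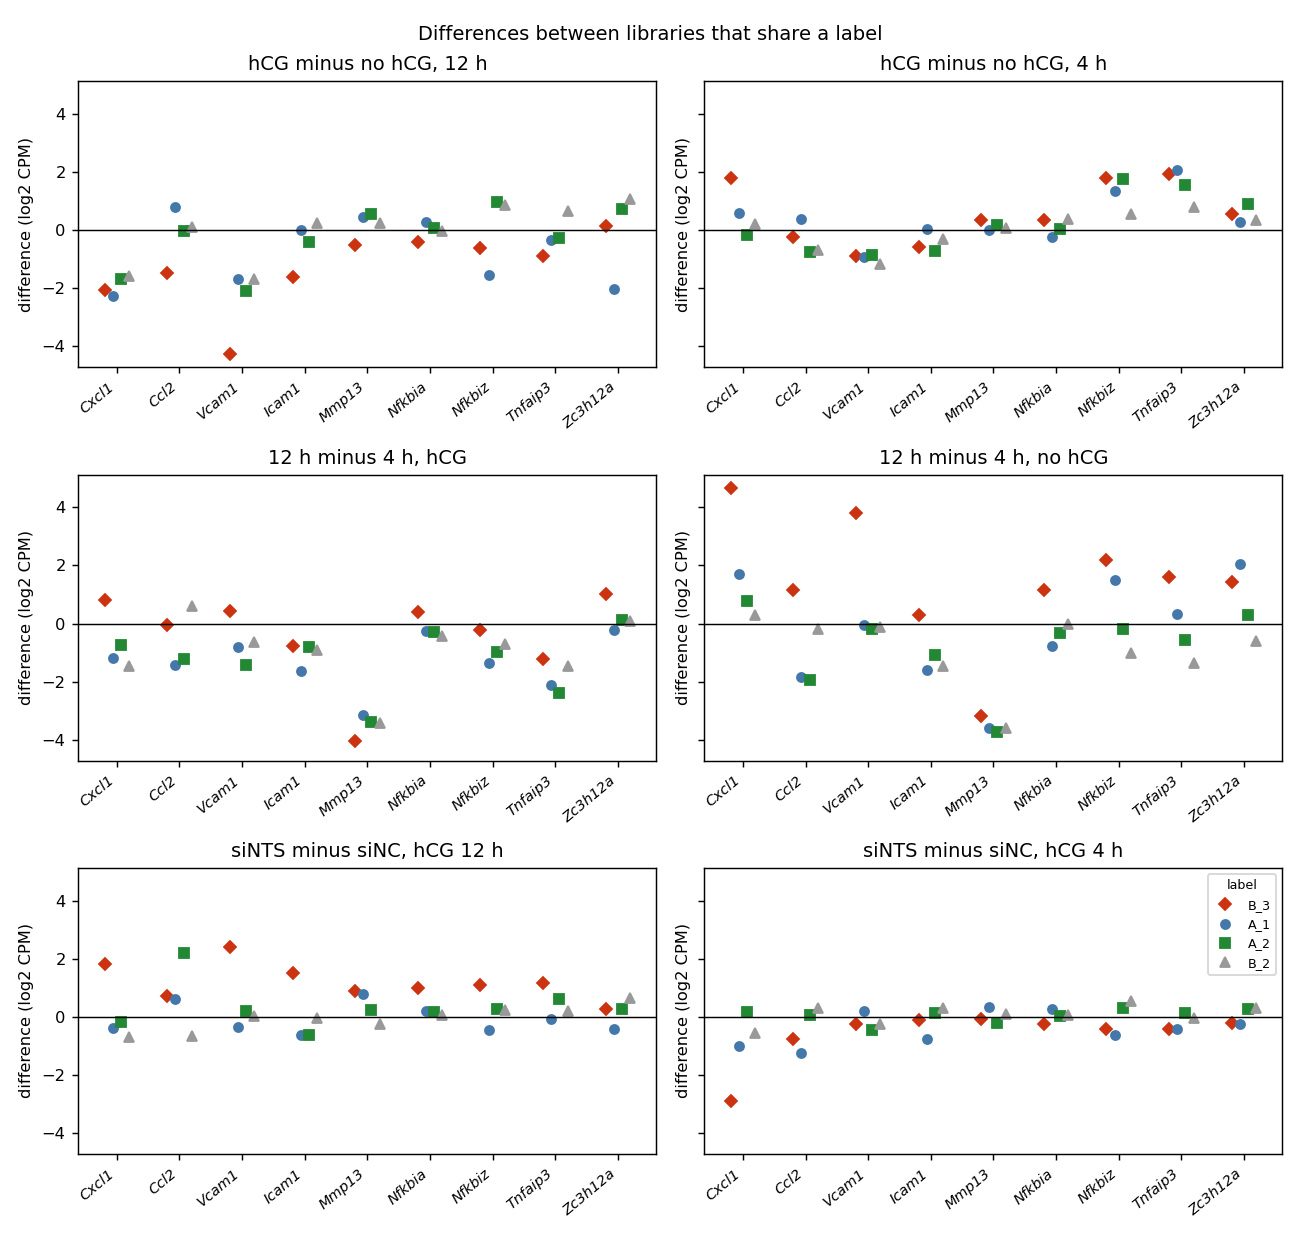
Differences in log2 CPM between libraries that share a label, for each of the 9 genes and 6 comparisons, 1 symbol per label. Mmp13 lies between -4.03 and -3.14 for 12 h against 4 h under every label, and B_3 lies apart from the other labels for Cxcl1 and Vcam1 in several panels.

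Mmp13 was lower at 12 h than at 4 h under every label, with and without hCG. With hCG it stood at 2.72, 0.299, 0.279 and 0.341 CPM in B_3, A_1, A_2 and B_2 at 12 h, against 45.2, 3.03, 3.38 and 4.11 CPM at 4 h. Within labels the change was -4.03 in B_3, -3.14 in A_1, -3.38 in A_2 and -3.41 in B_2 in log2 CPM, so that its direction and size were shared by libraries whose levels differed about as much as the time points did. It was the 1 gene of the 9 called over time in siNC cells with hCG, at -3.93 ± 1.395 and adjusted p = 0.027, where 20.2% of all genes were called lower and 43.2% in either direction. The call was lost without A_1, A_2 or B_2 (adjusted p = 0.057, 0.073 and 0.084), and without B_3 it was -3.52, adjusted p = 2.5e-07. With the replicate block 3 of the 9 genes were called lower, among 25.6% of all genes: Mmp13 (-3.74, adjusted p = 1.3e-11), Tnfaip3 (-1.83, adjusted p = 0.00039) and Icam1 (-1.16, adjusted p = 0.03). Nfkbiz was also lower at 12 h under every label, by -0.23 in B_3, -1.37 in A_1, -0.97 in A_2 and -0.72 in B_2, adjusted p = 0.74. For Cxcl1, Vcam1 and Nfkbia, B_3 went the other way from all 3 other labels. Cxcl1 changed by 0.80 in B_3, against -1.18, -0.73 and -1.46 in A_1, A_2 and B_2, and without B_3 it was called lower (-1.30, adjusted p = 0.0089). In all, 6 of the 9 genes were called lower at 12 h with hCG once B_3 was left out, where 17.7% of all genes were. Over all labels the median log2 fold change was -0.47 over the 9 genes and 0.01 over all tested genes.

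Without hCG no gene of the 9 passed for 12 h against 4 h, where 30.8% of all genes were called, although 2 had an unadjusted p under 0.05. DESeq2 and limma-voom called none, but DESeq2 gave no adjusted p for 4 of the 9 and so could not call those. Mmp13 stood at 3.88, 0.203, 0.175 and 0.277 CPM in B_3, A_1, A_2 and B_2 at 12 h, against 35.5, 3.03, 2.97 and 3.88 CPM at 4 h. The fold change was -3.32 ± 1.36, adjusted p = 0.069, and with the replicate block it was -3.55, adjusted p = 1.1e-10. Cxcl1 was higher at 12 h under every label, by 4.67 in B_3, 1.69 in A_1, 0.77 in A_2 and 0.31 in B_2, with adjusted p = 0.14 and, with the replicate block, 0.038. Those were the 2 genes called with the block, which called 43.3% of all genes. For Vcam1, Nfkbia, Ccl2 and Icam1, B_3 was higher at 12 h while all 3 other labels were lower. Vcam1 changed by 3.80 in B_3, against -0.06, -0.18 and -0.12 in A_1, A_2 and B_2, and Icam1 by 0.28 in B_3, against -1.59, -1.08 and -1.47. The median log2 fold change was 0.62 over the 9 genes and -0.01 over all tested genes. When B_3 was left out, 24.8% of all genes and 4 of the 9 passed: Cxcl1 higher, and Mmp13, Icam1 (-1.46, adjusted p = 0.0033) and Nfkbia (-0.37, adjusted p = 0.038) lower.

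For the Nts siRNA none of the 9 genes was called at 12 h or at 4 h by edgeR's quasi-likelihood test, and none had an unadjusted p under 0.05. DESeq2 and limma-voom called none, DESeq2 giving no adjusted p for 4 of the 9 at either time. The background was low as well, with 0.162% of all genes called at 12 h and 0.00649% at 4 h. The median log2 fold change over the 9 genes was 0.86 at 12 h and -0.15 at 4 h, against 0.02 and 0.01 over all tested genes. At 12 h the largest estimates were those of Cxcl1 (1.79 ± 1.96) and Vcam1 (1.78 ± 1.00), each with adjusted p = 1. For Vcam1 the siNTS values were 21.1, 0.800, 1.02 and 1.10 CPM in B_3, A_1, A_2 and B_2, against 3.97, 1.03, 0.884 and 1.07 CPM in siNC. The excess in siNTS was thus in the B_3 pair, and without B_3 the estimate was -0.03. Cxcl1 and Icam1 were higher in siNTS in the B_3 pair, by 1.81 and 1.498 in log2 CPM, and lower in all 3 other pairs. Nfkbia was higher in siNTS under all 4 labels, by 0.99 in B_3, 0.22 in A_1, 0.16 in A_2 and 0.06 in B_2. At 4 h Cxcl1 went the other way in B_3, by -2.88, against -1.01, 0.18 and -0.54 in A_1, A_2 and B_2.

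The authors' deposited table of comparisons lists 8 of the 9 genes, all but Ccl2. In the authors' deposited table for hCG at 12 h, Vcam1 was the 1 gene of the 8 under an adjusted p of 0.05 (-2.44 on the log2 scale, adjusted p = 0.0047), with 24.5% of its 14362 genes under it. In the authors' deposited table for hCG at 4 h it was Tnfaip3 (1.58, adjusted p = 0.0024), with 27.6% of genes. For the Nts siRNA none of the 8 was under it in the authors' deposited table at 12 h or at 4 h. The per-library log2 CPM of the authors' deposited table differ from those of the counts. In them the mean difference between B_3 and the other labels over the 6 groups was 0 for every gene listed, these 8 included, and how these values were made is not given in the sources used here. Single groups still differed, from -3.14 to 3.44 for Cxcl1.

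Beyond the 9 genes, 68 of 86 other genes of the NF-kB pathway were tested, in lists of ligands, receptors, adaptors and kinases, subunits, inhibitors and other targets. B_3 was highest in all 6 groups for 10 of them (14.7%), against 3.31% of all genes. The lists were chosen with earlier results of these data known, so this excess may follow in part from that choice and was not tested. Of the 10 genes, 9 were among 24 other targets (median difference 0.90 on the log2 scale), and 1, Relb, was among 5 subunits (median 0.39). None of the 4 ligands, 10 receptors, 16 adaptors and kinases or 9 inhibitors did so, and their medians were 0.16, 0.01, 0.07 and 0.31. Single members of those lists differed by more than 1, namely the ligand Tnf (2.47, B_3 highest in 5 groups), the inhibitor Irak3 (1.15, 5 groups) and the kinase Map3k14 (1.03, 3 groups). Tnf rests on few counts, with a mean of 0.18 CPM over all libraries. Among the 10 genes with B_3 highest in all 6 groups, the largest differences were those of the chemokines Cxcl2 (5.25), Cxcl5 (3.94) and Cxcl10 (2.65), followed by the stress gene Ier3 (1.08), the pentraxin Ptx3 (1.03), a component of the cumulus matrix, and the cytokine Lif (0.90). Of the targets with B_3 highest in fewer groups, named after their values were seen, Cxcl3 (2.58), Mmp10 (1.86), Ptgs2 (1.65), Saa3 (1.56) and Cd83 (1.54) also lay above Ier3. Cxcl3 was likewise near the floor, at a mean of 0.289 CPM. Outside B_3, Cxcl2, Cxcl3, Cxcl5 and Tnf reached at most 0.121, 0.185, 0.277 and 0.1735 CPM in any library. These genes had enough counts to be tested only through B_3. Their place among the 68 and their large differences therefore follow in part from the filter. Without hCG at 12 h, Cxcl2 had 16.5 CPM in B_3, against 0 to 0.0254 CPM in the other 3. In the same group Cxcl5 had 14.6 CPM in B_3, against 0.125 to 0.277 CPM in the other 3. Ier3, measured with far more counts, had 277 CPM in B_3, against 45.2 to 55.1 CPM in the other 3, in siNTS cells with hCG at 12 h.

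**Figure D4:**
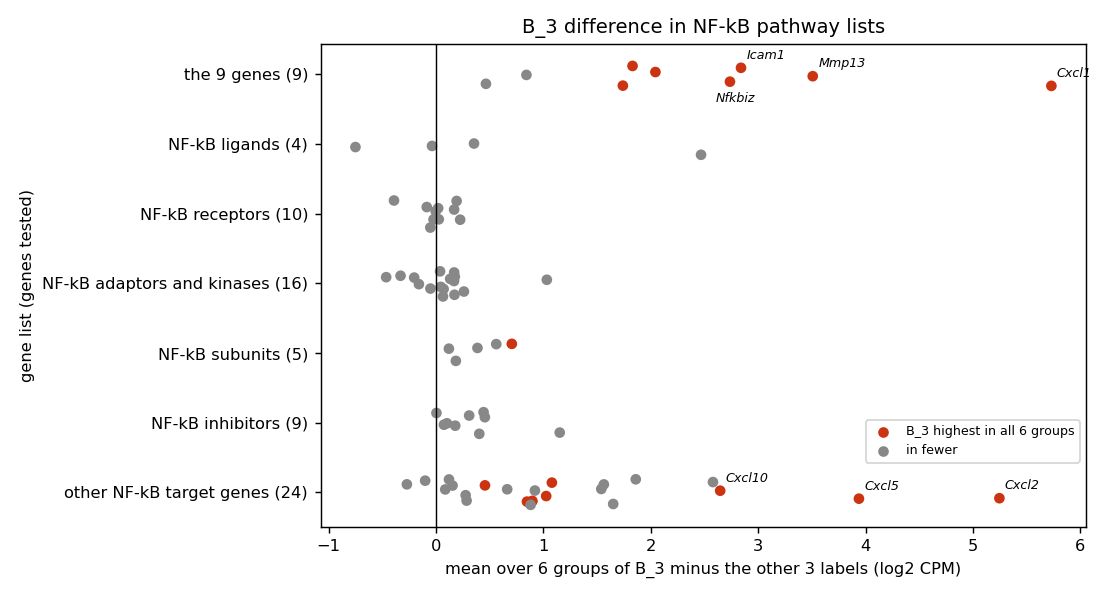
Mean over 6 groups of the difference between B_3 and the other 3 labels in log2 CPM, 1 point per gene, for the 9 genes (top row) and the wider NF-kB lists, with the number tested in brackets. Points far to the right are targets such as Cxcl1 (5.73) and Cxcl2 (5.25), and the receptors lie near 0.

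Of the 68 wider NF-kB genes, the share called in either direction was near or below that of all genes in the hCG and time comparisons. It was 16.2% for hCG at 12 h (16.5% of all genes), 17.6% for hCG at 4 h (19.1%), 36.8% for time with hCG (43.2%) and 23.5% for time without hCG (30.8%). The balance of directions was not always that of all genes. After 12 h of hCG, 8 of the 68 rose and 3 fell, against 8.18% and 8.36% of all genes. Among them were Bcl3, an atypical IkB protein (1.86 ± 0.26, adjusted p = 1.8e-05), Tnfrsf1b, a receptor of tumour necrosis factor (0.55 ± 0.11, adjusted p = 0.0013), the adaptor Traf5 (-1.13 ± 0.19, adjusted p = 0.00013) and the lipopolysaccharide receptor Tlr4 (-1.26 ± 0.27, adjusted p = 0.0019). After 4 h of hCG more of them rose (9) than fell (3), where of all genes 7.95% rose and 11.1% fell. The smallest adjusted p-values were those of the cytokine Il6 (3.03 ± 0.55, adjusted p = 0.00047), Ptx3 (2.19 ± 0.40, adjusted p = 0.00052), the ligand Tnfsf12 (-0.54 ± 0.11, adjusted p = 0.001) and Bcl3 (1.09 ± 0.25, adjusted p = 0.0038). Over time with hCG more of them were lower (18) than higher (7) at 12 h, where of all genes 20.2% were lower and 22.9% higher. They included Ptx3 (-4.24 ± 0.45, adjusted p = 2e-07), Il1rap, a subunit of the interleukin-1 receptor (-1.02 ± 0.12, adjusted p = 9.7e-07), the cytokine Il18 (2.68 ± 0.35, adjusted p = 2.8e-06) and Traf5 (-1.36 ± 0.19, adjusted p = 4.8e-06). Over time without hCG, 4 were higher and 12 lower, against 14.8% and 16% of all genes. They included the receptor Tnfrsf12a (-1.47 ± 0.21, adjusted p = 1.9e-05), Il1rap (-0.71 ± 0.12, adjusted p = 0.00017), Ptx3 (-2.45 ± 0.45, adjusted p = 0.00027) and the kinase Irak1 (0.75 ± 0.15, adjusted p = 0.00069). With the replicate block 11 rose and 8 fell after 12 h of hCG, among 13.1% and 13.9% of all genes, and 16 rose and 4 fell after 4 h, among 12.8% and 17.3%. For the Nts siRNA edgeR, DESeq2 and limma-voom called none of the 68 at either time, and 5 at 12 h and 0 at 4 h had an unadjusted p under 0.05. The hCG effect differed between the times for 1, Tnfsf12 (0.60 ± 0.15, adjusted p = 0.028), and with the replicate block for 1 in the higher direction and 3 in the lower, among 8.36% and 5.75% of all genes. Il6 and Ptx3 thus passed at 4 h of hCG in edgeR's fit without a block, where the 9 genes did not. The 9 were chosen for a B_3 difference, which enters the spread of that fit, so this is no contrast between like genes. For Tnfaip3 the SE was 0.758 without and 0.372 with the replicate block. In edgeR's fit with that block Tnfaip3 and Nfkbiz passed (adjusted p = 0.0033 and 0.034).

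Across the 24 libraries, the genes whose log2 CPM followed the mean of the 9 standardised genes most closely were named among 12553 genes of at least 1 CPM on average. They were Cxcl2 (r = 0.95), Bcar1 (0.90), Cxcl10 (0.88), Cxcl5 (0.87), Relb (0.84), Fos (0.84), Ppp1r13l (0.83), Egr1 (0.83), St14 (0.81) and Akap12 (0.81). Bcar1, an adaptor of integrin signalling, had 137 CPM in B_3, against 65.3 to 80.7 CPM in the other labels, in siNTS cells with hCG at 12 h. Fos, an immediate early transcription factor, had 24.7 CPM in B_3, against 7.64 to 9.24 CPM, in the same group. In 9 of these 10 genes B_3 was highest in all 6 groups, with Ppp1r13l in 4, where 3.31% of all tested genes had B_3 highest in all 6. The mean they follow is that of genes chosen for standing higher in B_3, so this follows from the choice. The libraries share labels and groups, and 6 of them are B_3.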

How the data were processed

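The members and the gene lists were chosen with earlier results of these data known. Estimated counts per gene in 24 libraries were deposited by the authors, along with tables of their comparisons with log2 fold changes, per-library log2 CPM and p-values. Salmon 1.4.0, edgeR, limma, R 4.1.0 and build GRCm39 appear in the submitters' processing notes, without roles, and the authors' model is not given in the sources used here. Libraries were stranded mRNA, per the labels' protocols.

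The estimated counts were rounded. Genes passing filterByExpr over 6 groups (15405 of 39253, holding 99.97% of counts) entered edgeR 4.0.16 (R 4.3.3; glmQLFit, glmQLFTest, TMM, no block) with all 24 libraries; 7 contrasts were adjusted by Benjamini-Hochberg over all genes, threshold 0.05. Errors are the log2 fold change over the root of F. CPM used TMM-scaled totals, and log2 CPM a prior count of 2. Totals were 26.2 M to 45.4 M with a median near 39.2 M. The fit was tested on simulated data. Same-group library pairs all differed beyond sampling noise (36 pairs, chi-square per degree of freedom from 24.1).

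Labels recur with their title dates in every group, so they pair libraries. Over 10798 genes, 21 of 24 same-label pairs of compared groups had correlated deviations over 0.1 (median 0.542, lowest -0.692). Alternatives were the label as replicate block, a block of title date, RLE factors, no filter, DESeq2 1.42.0, limma-voom 3.58.1, the contrast's libraries only, and leaving out each label; 2 were added after seeing the data. All 9 members are named; of the wider NF-kB genes, up to 4 with the smallest adjusted p per contrast, up to 6 with the largest B_3 difference among those with B_3 highest in all 6 groups, and 10 with the most similar pattern. For Ccl2, Vcam1 and Nfkbiz the promoter was not used here.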

Additional observations from a re-analysis of the deposited data

Results flagged for a closer look

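In each of 54 groups of 4 values (9 genes in 6 groups), the gap between the most extreme library and its nearest neighbour was divided by the range of the group and set against Dixon's 95% critical value. In 28 of the 54 a library stood apart, and in all 28 it was the B_3 library, above the others. The chance rate of about 1 in 20 behind the critical value holds for independent sets not chosen on their values. It does not apply here, because the genes were chosen for this difference and the 54 sets share the same libraries. The count is therefore a description, and its cause was not tested.

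Cxcl1, the neutrophil chemokine, stood apart in all 6 groups: B_3 held 118 CPM in siNTS with hCG at 12 h, 33.7 CPM in siNC with hCG at 12 h, 142 CPM in siNC without hCG at 12 h, 2.59 CPM in siNTS with hCG at 4 h, 19.3 CPM in siNC with hCG at 4 h and 5.51 CPM in siNC without hCG at 4 h. Vcam1, the integrin ligand, stood apart in the 12 h groups, with 21.1 CPM in siNTS with hCG at 12 h, 3.97 CPM in siNC with hCG at 12 h and 77.1 CPM in siNC without hCG at 12 h. For Icam1, the other adhesion molecule, B_3 stood apart with 6.34 CPM in siNTS with hCG at 12 h, 2.21 CPM in siNC with hCG at 12 h, 6.89 CPM in siNC without hCG at 12 h, 3.53 CPM in siNTS with hCG at 4 h and 5.66 CPM in siNC without hCG at 4 h. Mmp13, the collagenase, was again apart in all 6 groups, with B_3 at 5.10 CPM in siNTS with hCG at 12 h, 2.72 CPM in siNC with hCG at 12 h, 3.88 CPM in siNC without hCG at 12 h, 43.0 CPM in siNTS with hCG at 4 h, 45.2 CPM in siNC with hCG at 4 h and 35.5 CPM in siNC without hCG at 4 h. The inhibitor Nfkbia was apart at 12 h, with 128 CPM in siNTS with hCG at 12 h, 64.7 CPM in siNC with hCG at 12 h and 85.6 CPM in siNC without hCG at 12 h. Its nuclear relative Nfkbiz was apart with 22.3 CPM in siNTS with hCG at 12 h and 16.1 CPM in siNC without hCG at 12 h. Tnfaip3, which ends NF-kB signalling, was apart at 12 h with 22.8 CPM in siNTS with hCG at 12 h, 10.03 CPM in siNC with hCG at 12 h and 18.7 CPM in siNC without hCG at 12 h. No library of Zc3h12a or Ccl2 stood apart by this measure.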

How the results depend on the processing

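The count of the 9 genes called moved with how label differences were handled. With the replicate block, which pairs libraries by label, 2 were called for hCG at 4 h, 1 at 12 h, 1 for the difference of those effects, 2 for time without hCG, 3 for time with hCG and 0 for the Nts siRNA at either time. With a block of title date, 1, 1, 1, 2, 3 and 0 were called in the same order. In a fit with the replicate block on A_1, A_2 and B_2 alone, chosen after seeing the data, 2, 2, 2, 4, 6 and 0 were called. With only the libraries of the contrast, 2 were called for hCG at 4 h, 0 at 12 h and 2 for time with hCG. limma-voom called 0 for hCG at 12 h and 2 for time with hCG, and DESeq2 called 0 in both, giving no adjusted p for the genes called there by edgeR. Vcam1 with hCG at 12 h had adjusted p from 2.3e-05 without B_3 to 0.083 without A_2. Leaving out each label in turn gave 0 to 2 for hCG at 4 h, 0 to 2 at 12 h, 0 to 1 for their difference, 0 to 4 for time without hCG, 0 to 6 for time with hCG and 0 for the siRNA, the highest counts coming without B_3. RLE size factors and no filter on low counts left these counts as they were, as did leaving out the A_1 library of siNC without hCG at 12 h, chosen after seeing the data. The median B_3 difference was 2.04 with RLE size factors too.

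Vcam1 for hCG at 12 h and Mmp13 for time with hCG, which passed over all labels, did not change sign in any of these settings. Among log2 estimates that did not pass over all labels, several did. Of these, 2 passed with the new sign: Cxcl1 for time with hCG (adjusted p = 0.0089) and Nfkbia for time without hCG (adjusted p = 0.038) without B_3, and both with the replicate block on A_1, A_2 and B_2 alone. With the replicate block they were for hCG at 12 h Zc3h12a (-0.25), for Nts siRNA at 4 h Nfkbiz (0.049) and Mmp13 (0.041), for time without hCG Nfkbia (-0.00080) and for time with hCG Cxcl1 (-0.22). With the block of title date they were for hCG at 12 h Zc3h12a (-0.26) and Mmp13 (0.0033), for Nts siRNA at 4 h Nfkbiz (0.034) and Mmp13 (0.050), for time without hCG Nfkbia (-0.0021) and for time with hCG Cxcl1 (-0.28). With limma-voom they were for hCG at 12 h Zc3h12a (-0.025) and Mmp13 (0.24), for Nts siRNA at 12 h Cxcl1 (-0.0058) and Icam1 (-0.0027), for time with hCG Cxcl1 (-0.72) and for the hCG difference between times Mmp13 (0.095) and Ccl2 (0.36). With the replicate block on A_1, A_2 and B_2 alone they were for hCG at 12 h Zc3h12a (-0.43), Mmp13 (0.50), Nfkbia (0.10) and Ccl2 (0.40), for Nts siRNA at 4 h Nfkbiz (0.15) and Mmp13 (0.085), for Nts siRNA at 12 h Cxcl1 (-0.49), Vcam1 (-0.033) and Icam1 (-0.45), for time without hCG Tnfaip3 (-0.53), Vcam1 (-0.12) and Nfkbia (-0.37), for time with hCG Cxcl1 (-1.31) and for the hCG difference between times Mmp13 (0.38), Nfkbia (0.030), Ccl2 (0.75) and Icam1 (0.19). Leaving out 1 label or library at a time, the estimates ranged for hCG at 12 h Nfkbiz (-0.69 to 0.11), Zc3h12a (-0.11 to 0.36), Mmp13 (-0.67 to 0.50), Nfkbia (-0.32 to 0.11) and Ccl2 (-1.12 to 0.41), for Nts siRNA at 4 h Nfkbiz (-0.31 to 0.20), Zc3h12a (-0.068 to 0.20), Mmp13 (-0.068 to 0.097) and Nfkbia (-0.059 to 0.12), for Nts siRNA at 12 h Cxcl1 (-0.48 to 1.80), Vcam1 (-0.030 to 1.98) and Icam1 (-0.47 to 1.23), for time without hCG Tnfaip3 (-0.55 to 0.96), Vcam1 (-0.12 to 2.70), Nfkbia (-0.37 to 0.48), Ccl2 (-1.38 to 0.18) and Icam1 (-1.46 to 0.18), for time with hCG Cxcl1 (-1.30 to 0.73), Nfkbia (-0.34 to 0.0029) and Ccl2 (-1.14 to 0.0042) and for the hCG difference between times Mmp13 (-0.96 to 0.39), Nfkbia (-0.50 to 0.034), Ccl2 (-0.94 to 0.75) and Icam1 (-1.14 to 0.17). The causes were not tested. B_3 is a single library per group, so its spread enters every fit that holds it, and Ccl2 rests on few counts. Paired fits rest on the labels' dates.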
